A study of Mus musculus with 4 samples.

Results

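The transcripts of 10 genes for channels that let calcium into the cytosol were examined in sorted lung smooth muscle cells (SMCs) with and without functional *Tet3*. The genes were those of voltage-gated calcium channels (*Cacna1c*, *Cacna1d*, *Cacna1g*, *Cacna1h*, *Cacnb2*, *Cacnb3* and *Cacna2d1*) and of channels that empty the calcium store (*Itpr1*, *Itpr2* and *Ryr3*). They were found by symbol in the deposited expression table, where each had 1 of the 21462 gene entries, and all 10 were abundant enough to be tested among 16659 genes with a mean value of at least 10. TET3 is a dioxygenase that turns 5-methylcytosine of DNA into 5-hydroxymethylcytosine. The question was whether its loss in SMCs was accompanied by other levels of these channel transcripts.

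Of the 4 RNA-seq libraries, 2 were from mutants, labelled Mut (Tet3 mutant replicates 1 and 2), and 2 from controls, labelled WT (control replicates 1 and 2). Mutant animals carried Tet3 fl/fl alleles, a tamoxifen-inducible α-SMA-ERT2Cre, in which the α-SMA promoter drives the recombinase, and a ROSA26 tdTomato reporter that Cre switches on. Controls lacked the floxed *Tet3* allele and, over all experiments of the study, carried the Cre, the reporter or both. Sorting for tdTomato needs both, so the controls sequenced here are taken to have carried both. By the methods of the study, the animals were on a C57BL/6 background and received tamoxifen by intraperitoneal injection at 75 mg/kg daily for 10 days from 8 weeks of age. Cells carrying CD45 or Ter-119 were removed with beads, and living tdTomato-positive cells were then sorted by flow cytometry. The α-SMA promoter is also used by pericytes and myofibroblasts, so the sort gate can hold these cells too. The methods state that animals of both sexes were used, and the study describes the RNA-seq replicates as independent animals. The age at sorting and the sex of each animal sequenced were not given in the sources used here.

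Smooth muscle contracts when cytosolic calcium binds calmodulin and so activates myosin light chain kinase. Calcium enters from outside through voltage-gated channels, each built of a pore-forming alpha1 subunit with an intracellular beta and an extracellular alpha2delta subunit, and is released from the sarcoplasmic reticulum through inositol trisphosphate receptors and ryanodine receptors. In airway and vascular muscle the L-type pore Cav1.2 is the main route opened by depolarization, while hormones and transmitters that act on Gq-coupled receptors open the store through inositol trisphosphate.

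Values are normalized counts as scaled and rounded by the authors, and each library is estimated to hold 6.32 M to 7.56 M reads over genes. A fold change compares mutant with control on the scale of log2(value + 1) and carries the moderated standard error (SE) of limma. In all lists of values below, replicate 1 precedes replicate 2. *Tet3* itself gave 1847 and 1926 normalized counts for the controls, against 1534 and 1444 for the mutants (log2 fold change -0.34, SE 0.10, limma adjusted p = 0.681). Both mutants were below both controls, but most of the gene's transcript signal remained, and gene-level values do not separate the floxed exon from the rest. Control replicate 2 stood apart from the other 3 libraries. It had 2 counts of *Xist* and 774 of the Y-linked *Ddx3y*, where the other 3 libraries had 5214 to 6781 and 0. By these genes control replicate 2 was male and the other 3 libraries were female. In every fit without control replicate 1, genotype and sex therefore cannot be told apart. Sex was also unbalanced in the fit to all libraries, since the only male library was a control. Only the fit without control replicate 2 compares female libraries alone. Of 10888 genes with a mean of at least 100, control replicate 2 was more than 2-fold from all 3 others in 391, against 9 to 72 for each other library.

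The markers of the labelled cell type were present, beside those of other cell types. Sums over such lists depend on the genes chosen and do not give the share of each cell type. The smooth muscle markers *Myh11* and *Acta2* had 1330 to 2473 and 686 to 1032 normalized counts, and none of the 10 smooth muscle markers was at 0. Summed per kilobase of exon, the 10 markers reached 1623 and 2022 in the controls and 2430.1 and 2386 in the mutants. The same sum was 3338 to 6152 for 7 alveolar type 2 markers, 2022 to 2368 for 7 endothelial markers and 1934 to 2470.2 for 7 fibroblast markers. In bulk samples, fewer cells of a type and less RNA per cell cannot be told apart. On both scales, summed counts and sums per kilobase, the smooth muscle, pericyte, cardiomyocyte, ciliated, macrophage and T cell markers of the 2 mutants lay above those of the 2 controls and the alveolar type 2 markers lay below. The fibroblast, alveolar type 1, mesothelial and erythroid markers overlapped on both. The endothelial markers were higher in the mutants as summed counts (13883 and 13346 against 12911 and 12494) but overlapped per kilobase. The glial and neuronal markers overlapped as summed counts but were lower per kilobase (76.2 and 79.2 against 83.4 and 135).

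None of the 10 channel genes passed the adjusted threshold of 0.05 (limma, Benjamini-Hochberg over 16659 genes), as was the case for 0% of all genes tested, with 0.0902 the smallest adjusted p in the table. At an unadjusted p under 0.05 there were 2 of the 10, the T-type pore *Cacna1g* and the beta subunit *Cacnb3*, both higher in the mutants, against 6.68% of all genes in either direction, 3.83% higher and 2.85% lower. Groups did not overlap for 4 of the 10, against 39.0% of all genes, with *Cacna1g* and *Cacnb3* higher (19.6% of all genes) and *Itpr1* and *Itpr2* lower (19.5% of all genes). The median log2 fold change of the 10 genes was 0.02, beside -0.01 for all genes tested, and 5 of the 10 were above 0. The 10 genes thus had no common direction.

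**Figure D1:**
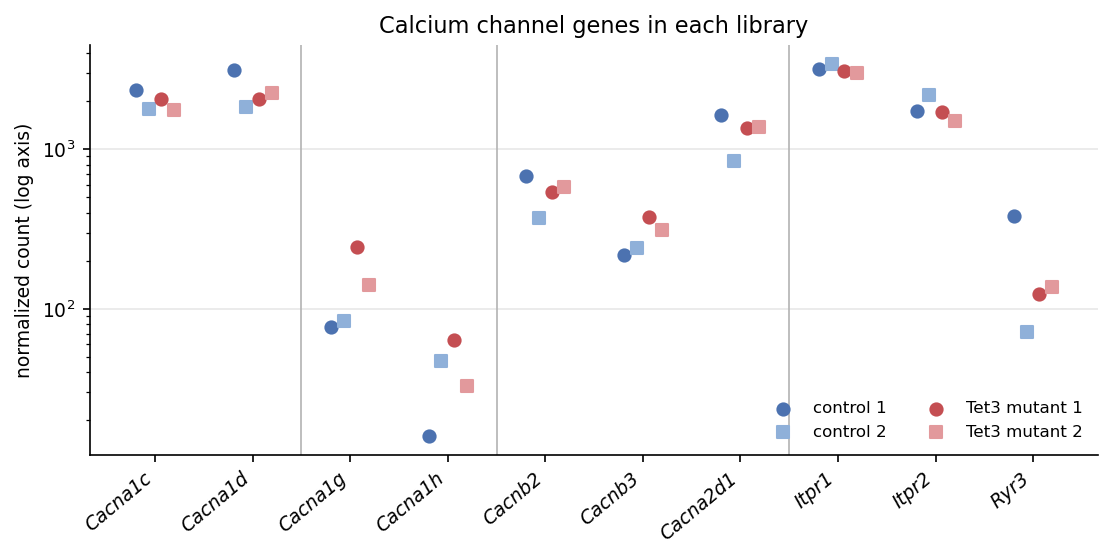
Normalized counts (log axis) of the 10 calcium channel genes in each library, with circles for replicate 1 and squares for replicate 2 of controls (blue) and Tet3 mutants (red). Vertical lines part L-type pores, T-type pores, auxiliary subunits and store channels. *Cacna1g* and *Cacnb3* had both mutants above both controls, while *Cacna1d*, *Cacnb2*, *Cacna2d1* and *Ryr3* had both mutants between the controls.

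The genes were first ordered by level per kilobase of exon, averaged over the 4 libraries. *Cacna1d* (184 per kb) and *Itpr1* (173) were highest, followed by *Itpr2* (120), *Cacna2d1* (105), *Cacna1c* (93.6) and *Cacnb3* (71.3). *Cacnb2* (40.9) came next, and *Cacna1g* (13.4), *Ryr3* (9.41) and *Cacna1h* (4.1) were lowest. Among neighbours in that order, the libraries' values did not overlap between *Itpr1* and *Itpr2*, between *Cacnb3* and *Cacnb2*, and between *Cacnb2* and *Cacna1g*, and overlapped for the other 6 neighbouring pairs. L-type pores were therefore present far above T-type pores in every library. The exon length counts every annotated exon of a gene. Divided instead by the longest transcript, *Itpr1* (320 per kb) was above *Cacna1d* (240), *Cacna2d1* (175) was above *Itpr2* (152), and *Cacnb2* (108) was slightly above *Cacnb3* (105), while *Cacna1g* (16.3), *Ryr3* (11.5) and *Cacna1h* (4.86) remained the lowest.

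*Cacna1c* (ENSMUSG00000051331, GRCm38 chr6:118587240-119196890, minus strand) encodes Cav1.2, the L-type pore through which depolarized smooth muscle takes up calcium. It had 2344 and 1788 normalized counts in the controls and 2044 and 1757 in the mutants. The groups overlapped, with means of 2066 ± 393 (SD, n = 2) and 1900.5 ± 203 (SD, n = 2). A log2 fold change of -0.11 (SE 0.17) had a 95% interval of -0.54 to 0.32 and a limma adjusted p of 0.871. A change of Cav1.2 transcript was not detected, and changes within that interval could not be told from none with these 4 libraries.

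*Cacna1d* (ENSMUSG00000015968, chr14:30039939-30491455, minus strand) encodes Cav1.3, an L-type pore that opens at more negative voltages than Cav1.2 and is best known from pacemaker and endocrine cells. Its values were 3122 and 1843 in the controls and 2070 and 2230 in the mutants. Both mutants lay between the controls, which differed from each other by 18.2 times the counting SD, the widest such gap among the 10 genes, against 2.45 times between the mutants. The log2 fold change was -0.16 (SE 0.26, 95% interval -0.82 to 0.50, limma adjusted p = 0.878), and it was 0.22 without control replicate 1 and -0.54 without control replicate 2. The sign of the *Cacna1d* change thus depended on which control was used. Per kilobase of exon, *Cacna1d* made up 56.9% to 65.6% and *Cacna1c* 29.3% to 33.8% of the transcripts of the 6 high-voltage-activated pore genes. The share of *Cacna1c* differed between groups by 0.509 percentage points (two-sided exact permutation p = 0.667, where 2 against 2 samples cannot give less than 0.333). An exon stretch of 589 bases, 4.67% of the exon bases of *Cacna1d*, is shared with *Chdh* on the other strand, which had a mean of 41 normalized counts.

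Of the 3 promoter windows of *Cacna1c* in the RefSeq table, those with the fewest and the most CpG are shown, because the gene has start sites of very different CpG content and CpG is the dinucleotide whose cytosine is methylated and then oxidized by TET enzymes. The windows are RefSeq sequences of GRCm38.p6 from 250 bases before to 50 bases after an annotated start, 5′ to 3′ on the minus strand, with CpG in capitals. The most upstream window, chr6:119196360-119196659, holds 3 CpG and the middle window, chr6:119108446-119108745, holds 57. As many CpG or more are found in 76.7% and 0.152% of the 32851 windows of 27025 genes. The most downstream window, chr6:118757925-118758224, holds 7 and is not printed. The deposited values are sums over a gene, so the use of these starts was not measured.
Cacna1c most upstream start: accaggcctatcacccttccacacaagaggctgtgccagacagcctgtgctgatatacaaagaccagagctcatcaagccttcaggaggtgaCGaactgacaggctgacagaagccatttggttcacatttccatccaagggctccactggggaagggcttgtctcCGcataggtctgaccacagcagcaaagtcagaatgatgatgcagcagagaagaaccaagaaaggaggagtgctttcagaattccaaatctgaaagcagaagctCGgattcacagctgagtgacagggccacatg
Cacna1c middle start: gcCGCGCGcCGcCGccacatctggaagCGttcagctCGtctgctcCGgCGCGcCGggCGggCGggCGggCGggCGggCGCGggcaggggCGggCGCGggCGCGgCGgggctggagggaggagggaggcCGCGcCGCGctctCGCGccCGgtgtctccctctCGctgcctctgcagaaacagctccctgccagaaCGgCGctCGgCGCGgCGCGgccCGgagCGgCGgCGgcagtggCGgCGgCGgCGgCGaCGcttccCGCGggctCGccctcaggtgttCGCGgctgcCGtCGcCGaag

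*Cacna1g* (ENSMUSG00000020866, chr11:94408391-94474198, minus strand) encodes Cav3.1, a T-type pore that opens near the resting potential and passes brief currents. It had 77 and 84 normalized counts in the controls and 243 and 141 in the mutants. Both mutants were above both controls, and the controls differed by less than the counting error (0.549 times its SD), whereas the mutants differed by 5.15 times it. The means were 80.5 ± 4.95 (SD, n = 2) and 192 ± 72.1 (SD, n = 2). On the log2 scale the difference was 1.19 (SE 0.31, 95% interval 0.39 to 1.99), a 2.29-fold higher level with an interval of 1.31 to 3.98, at an unadjusted p of 0.012 and a limma adjusted p of 0.681. It was the largest fold change of the 10 channel genes. The direction was kept with each library left out in turn, from 0.80 without Tet3 mutant replicate 1 to 1.58 without Tet3 mutant replicate 2, but the unadjusted p was under 0.05 only in the latter case among these 4.

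*Cacna1h* (ENSMUSG00000024112, chr17:25374285-25433783, minus strand) encodes Cav3.2, the T-type pore with a known part in the relaxation of coronary arteries. It was the least abundant member, with 16 and 47 normalized counts in the controls and 64 and 33 in the mutants. The groups overlapped and the controls differed by 2.94-fold. Its log2 fold change was 0.72 (SE 0.63, 95% interval -0.90 to 2.34, limma adjusted p = 0.762), and it was -0.03 without control replicate 1. Per kilobase of exon, the 3 T-type pore genes summed to 12.3 and 13.6 in the controls and 32.6 and 18.2 in the mutants. *Cacna1g* took 61.9% and 60.9% of that sum in the controls and 73.6% and 76.4% in the mutants, a difference of 13.6 percentage points that ran from 12.2 to 15.0 with each library left out. The shares of *Cacna1g* did not overlap, and the two-sided exact permutation p was 0.333, the smallest possible. The rest of the sum rested on low counts and varied between the controls. There *Cacna1h* took 13.3% and 35.4%, and *Cacna1i*, with 30 and 5 normalized counts, took 24.8% and 3.73%.

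Because markers of several cell types were also higher in the mutants, *Cacna1g* was also set against their summed values, a calculation chosen after the values were seen. Per 1000 of the summed smooth muscle markers, *Cacna1g* stood at 14.3 and 11.9 in the controls and 29.3 and 17.7 in the mutants. Per 1000 of the pericyte markers it stood at 17.8 and 18.7 and at 38.3 and 26.0, and per 1000 of the ciliated cell markers at 40.4 and 40.7 and at 68.5 and 53.9. Against these 3 lists the mutants remained above the controls. They were above the controls against the alveolar type 2 markers too, but those were lower in both mutants, which fixed that direction in advance. No ratio was formed with the macrophage or T cell markers. Against the cardiomyocyte markers, which summed to 494 and 319 normalized counts in the controls and 746 and 633 in the mutants with *Nppa* at 0 in the controls, the ratios overlapped, at 156 and 263 and at 326 and 223. T-type pores are known from pulmonary vein and sinoatrial myocardium, and the part of such cells in the *Cacna1g* values was not tested.

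**Figure D2:**
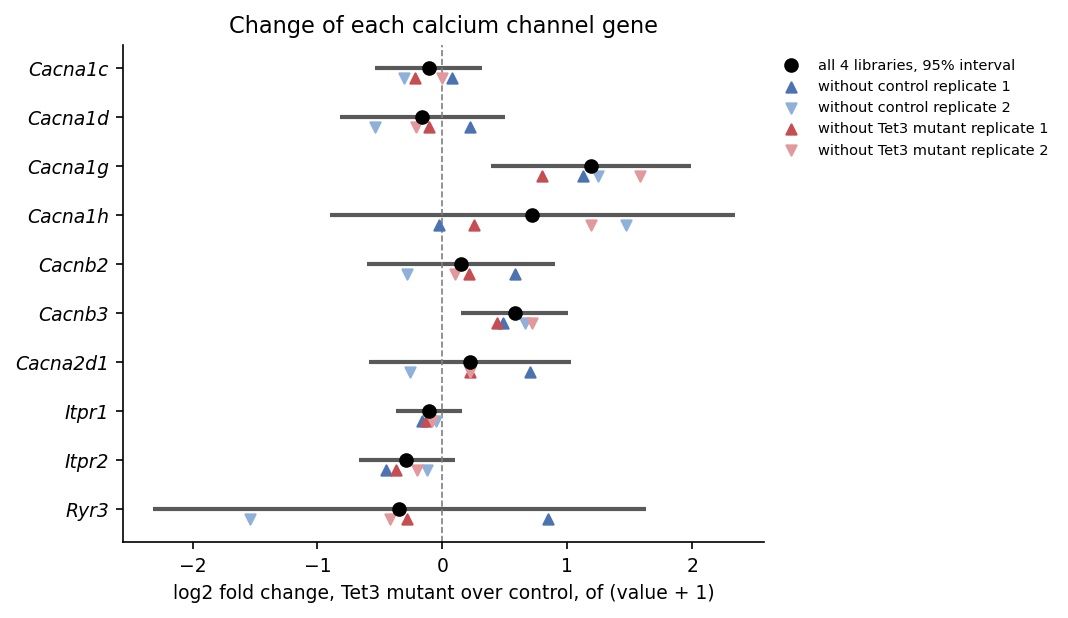
Log2 fold change (Tet3 mutant over control, of value + 1) of each channel gene. Black points with bars are the fit to all 4 libraries with its 95% interval, and triangles are fits with 1 library left out, in blue for controls and red for mutants. The intervals of *Cacna1g* and *Cacnb3* lay above 0, and the triangles of *Ryr3* ran from -1.54 to 0.85.

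*Cacnb3* (ENSMUSG00000003352, chr15:98630840-98644529, plus strand) encodes a cytosolic beta subunit, which brings L-type pores to the cell surface and tunes their gating. It had 216 and 242 normalized counts in the controls and 376 and 310 in the mutants, so that both mutants were above both controls. The means were 229 ± 18.4 (SD, n = 2) and 343 ± 46.7 (SD, n = 2). The log2 fold change was 0.58 (SE 0.17, 95% interval 0.15 to 1.01), or 1.49-fold with an interval of 1.11 to 2.01, at an unadjusted p of 0.0181 and a limma adjusted p of 0.681. It ran from 0.44 to 0.72 with each library left out, and the unadjusted p rose to 0.134 without Tet3 mutant replicate 1 and to 0.0736 without control replicate 1. Relative to the summed smooth muscle markers, *Cacnb3* overlapped between groups, with 40.1 and 34.4 per 1000 in the controls and 45.4 and 39.0 in the mutants. Relative to the cardiomyocyte markers it overlapped as well, and relative to the ciliated cell markers it stood at 113 and 117 and at 106 and 119. Relative to the pericyte markers the mutants were above the controls, at 49.8 and 53.8 and at 59.3 and 57.1. They were also above relative to the alveolar type 2 markers, which were lower in both mutants and so fixed that direction in advance. What the makeup of the sorted cells contributes to the *Cacnb3* values was not tested.

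The promoters of *Cacnb3* are shown because it is 1 of the 2 members at an unadjusted p under 0.05 and the only one of these with windows in the RefSeq table. They are given like those of *Cacna1c*, on the plus strand of GRCm38.p6 with CpG in capitals. The upstream window, chr15:98632078-98632377, holds 7 CpG, the median of all windows, and the downstream window, chr15:98634517-98634816, holds 29, a number reached by 12.9% of windows. The GC box GGGCGG, counted on both strands, is in both windows, as in 35.7% of all windows. The CArG box, to which the smooth muscle regulator SRF binds, was searched as its consensus on both strands and is in neither of them, nor in any of the 11 windows of the 6 members found in the table, against 1.63% of all windows. Methylation of these windows was not measured in these libraries.
Cacnb3 upstream start: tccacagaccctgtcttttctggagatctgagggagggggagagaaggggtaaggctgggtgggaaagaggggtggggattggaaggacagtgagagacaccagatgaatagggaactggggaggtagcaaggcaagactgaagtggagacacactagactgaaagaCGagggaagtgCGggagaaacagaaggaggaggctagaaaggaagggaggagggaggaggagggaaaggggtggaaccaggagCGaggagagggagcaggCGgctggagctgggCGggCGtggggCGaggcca
Cacnb3 downstream start: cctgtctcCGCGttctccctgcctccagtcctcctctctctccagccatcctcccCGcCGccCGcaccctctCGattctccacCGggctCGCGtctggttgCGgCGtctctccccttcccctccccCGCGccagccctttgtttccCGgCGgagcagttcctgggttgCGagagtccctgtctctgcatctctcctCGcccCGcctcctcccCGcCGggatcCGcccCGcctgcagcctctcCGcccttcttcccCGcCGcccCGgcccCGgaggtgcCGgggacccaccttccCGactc

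*Cacnb2* (ENSMUSG00000057914, chr2:14603088-14987908, plus strand) encodes the beta subunit that dominates in the heart and is also found in smooth muscle. Its values were 677 and 372 in the controls and 537 and 580 in the mutants, and both mutants lay between the controls. Mutants and controls differed by 0.15 on the log2 scale (SE 0.29, 95% interval -0.60 to 0.90, limma adjusted p = 0.9), with -0.28 without control replicate 2 and 0.58 without control replicate 1. Within the 4 beta subunit genes, *Cacnb3* made up 42.7% and 48.6% of the transcripts per kilobase in the controls and 57.4% and 54.3% in the mutants, 10.2 percentage points higher with no overlap (two-sided exact permutation p = 0.333, the smallest possible). The share of *Cacnb2* overlapped, at 40.6% and 22.7% and at 24.8% and 30.8%. The beta subunits together stood at 126 and 124 per kilobase in the controls and at 163 and 142 in the mutants. Measured by the longest transcript instead of all exons, the difference in the *Cacnb3* share was 8.98 points, again without overlap.

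*Cacna2d1* (ENSMUSG00000040118, chr5:15934691-16374511, plus strand) encodes the alpha2delta-1 subunit, which raises the number of channels at the membrane and binds gabapentinoid drugs. The controls had 1636 and 843 normalized counts and the mutants 1365 and 1371. The mutants differed by 0.115 times the counting SD and the controls by 16.0 times, so the mean of 1368 ± 4.24 (SD, n = 2) in mutants fell within the control range around 1239.5 ± 561 (SD, n = 2). The log2 fold change was 0.22 (SE 0.31, 95% interval -0.59 to 1.03, limma adjusted p = 0.861). Without control replicate 1 it was 0.70, and without control replicate 2 it was -0.26. The controls thus set the sign for *Cacna2d1* as for *Cacna1d* and *Cacnb2*.

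*Itpr1* (ENSMUSG00000030102, chr6:108213096-108551109, plus strand) encodes the type 1 inositol trisphosphate receptor, the store release channel best known from smooth muscle and cerebellar Purkinje cells. It had 3150 and 3409 normalized counts in the controls and 3096 and 2997 in the mutants. Both mutants were below both controls, by little. The log2 fold change was -0.11 (SE 0.10, limma adjusted p = 0.784), and its 95% interval of -0.37 to 0.16 was the narrowest of the 10 genes. It was negative with each library left out, from -0.16 to -0.05.

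*Itpr2* (ENSMUSG00000030287, chr6:146108299-146502223, minus strand) encodes the type 2 receptor, the form most sensitive to inositol trisphosphate. Its values were 1733 and 2184 in the controls and 1695 and 1501 in the mutants, so that both mutants were again below both controls. For *Itpr2* the log2 fold change was -0.29 (SE 0.15, 95% interval -0.67 to 0.10, limma adjusted p = 0.689). Its range with each library left out was -0.45 to -0.12.

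*Itpr3*, the third receptor gene and not one of the 10, had 1256 and 1826 normalized counts in the controls and 850 and 1067 in the mutants, a log2 fold change of -0.67 (SE 0.22, unadjusted p = 0.0282, limma adjusted p = 0.681). Its value ran from -0.94 without control replicate 1 to -0.40 without control replicate 2, and its unadjusted limma p was 0.123 without control replicate 2, 0.206 and 0.0782 without Tet3 mutant replicates 1 and 2, and 0.0681 without the mean-variance trend. All 3 receptor genes were thus lower in both mutants than in both controls, as were 19.5% of all genes tested. *Itpr3* was furthest from 0, and the unadjusted limma p was 0.351 for *Itpr1* and 0.116 for *Itpr2*. *Itpr3* was named because its unadjusted p was under 0.05 and its groups did not overlap. Its place in this count was thus chosen with the values known, and a shared direction of the receptor genes was not tested. Together the 3 receptor genes stood at 428 and 536 per kilobase in the controls and at 378 and 383 in the mutants. The share of *Itpr1* among them was 40.1% and 34.7% in the controls and 44.7% and 42.7% in the mutants, 6.28 percentage points higher without overlap (two-sided exact permutation p = 0.333, the smallest possible). The share of *Itpr2* overlapped, at 27.3% and 27.5% and at 30.3% and 26.5%. That of *Itpr3* was lower without overlap, at 32.5% and 37.8% in the controls and 24.9% and 30.9% in the mutants. The larger share of *Itpr1* was thus not a higher level, since its own counts were lower in both mutants. The alveolar type 2 markers were lower in the mutants too, with sums of 14063 and 20836 normalized counts in the controls and 10000 and 12722 in the mutants. Per 1000 of these markers, *Itpr3* was slightly lower in the mutants without overlap, at 85.0 and 83.9 against 89.3 and 87.6. *Itpr2* overlapped, at 123 and 105 in the controls and 170 and 118 in the mutants. *Itpr1* was higher in the mutants, at 310 and 236 against 224 and 164. Against the smooth muscle, pericyte, cardiomyocyte and ciliated cell markers, all 3 receptor genes were lower in the mutants without overlap. These marker sums were higher in both mutants and the receptor genes lower in both. The direction of those ratios was thus fixed in advance, and no conclusion is drawn from it. Per 1000 smooth muscle markers, *Itpr1* stood at 585 and 484 in the controls and 374 and 377 in the mutants. What the makeup of the sorted cells contributes to the receptor values was not tested.

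*Ryr3* (ENSMUSG00000057378, chr2:112631355-113217096, minus strand) encodes the type 3 ryanodine receptor, a store channel opened by calcium itself. It had 381 and 72 normalized counts in the controls and 124 and 137 in the mutants. The controls were 5.29-fold apart, the widest ratio among the 10 genes, and both mutants lay between them. For *Ryr3* the log2 fold change was -0.35 (SE 0.77, 95% interval -2.32 to 1.63, limma adjusted p = 0.915), and it was 0.85 without control replicate 1 and -1.54 without control replicate 2. No direction can be given for *Ryr3* from these libraries. Its share of the 3 ryanodine receptor genes per kilobase was 73.4% and 19.4% in the controls and 35.1% and 43.6% in the mutants, while *Ryr2*, the cardiac form, had 18.5% and 66.3% and then 51.4% and 30.6%. *Aven* lies on the other strand and shares 916 exon bases, 4.83% of those of *Ryr3*, with a mean of 127 normalized counts.

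**Figure D3:**
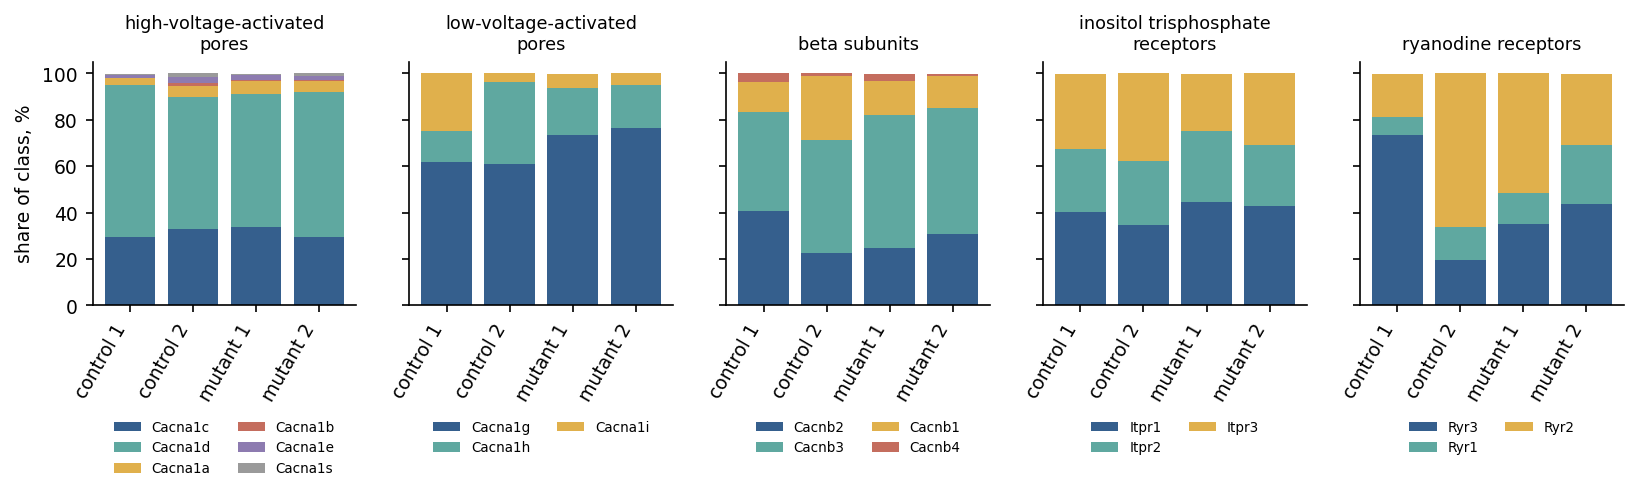
Share of each gene in its class, from normalized counts per kilobase of exon, in percent per library (stacked bars, 2 controls then 2 Tet3 mutants in each panel). The *Cacna1g*, *Cacnb3* and *Itpr1* segments were larger in both mutants than in both controls, and the *Itpr3* segment was smaller. *Ryr3* ran from 19.4% to 73.4% within the controls.

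Between the controls, 5 of the 10 channel genes were 1.5-fold or more apart (*Cacna1d*, *Cacna1h*, *Cacnb2*, *Cacna2d1* and *Ryr3*), against 24.9% of all genes tested. Between the mutants this was so for 2 of the 10, *Cacna1g* and *Cacna1h*, against 15.1% of all genes. Both mutants lay strictly between the controls for 4 of the 10, against 17.8% of all genes. In all 4 of these (*Cacna1d*, *Cacnb2*, *Cacna2d1* and *Ryr3*) control replicate 1 was the higher one. Leaving out 1 library therefore changed which members had an unadjusted p under 0.05. These were *Cacnb2*, *Cacna2d1*, *Itpr2* and *Ryr3* without control replicate 1, and *Cacna1d*, *Cacnb3*, *Cacna2d1* and *Ryr3* without control replicate 2. There were 0 without Tet3 mutant replicate 1, and *Cacna1g* and *Cacnb3* without Tet3 mutant replicate 2. Of all genes tested, 20.2% were under 0.05 without control replicate 1 and 5.37% without control replicate 2, against 1.64% and 2.49% without Tet3 mutant replicates 1 and 2.

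The members also differed in gene length. *Cacna1g*, *Cacna1h* and *Cacnb3* span less than 100 kb each and had log2 fold changes of 0.58 to 1.19 with a median of 0.72. The other 7 span at least 300 kb and had values of -0.35 to 0.22 with a median of -0.11, which was 0.22 without control replicate 1 and -0.28 without control replicate 2. Over all genes tested the medians were -0.01 for 14550 genes under 100 kb and 0.06 for 426 genes of at least 300 kb, so the order seen among the members was not that of the transcriptome. The split was chosen after the values were seen and was not tested.

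**Figure D4:**
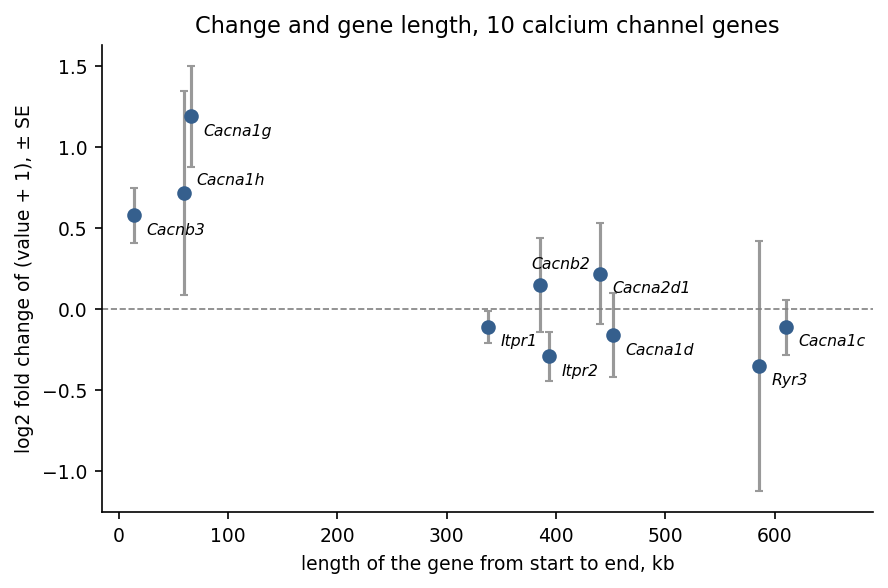
Log2 fold change (Tet3 mutant over control, of value + 1, ± SE) of the 10 channel genes against the length of the gene from start to end in kilobases. The 3 genes under 100 kb lay between 0.58 and 1.19, and the 7 longer genes between -0.35 and 0.22.

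The other genes of the pathway were read from lists grouped by role. The counts of each list stand beside 6.68% of all genes tested at an unadjusted limma p under 0.05, 3.83% higher and 2.85% lower. Of 10 other voltage-gated channel subunits tested, 2 were higher at an unadjusted p under 0.05 and 0 lower, with a median log2 fold change of 0.05. They were the alpha2delta-3 gene *Cacna2d3*, with 63 and 66 normalized counts in the controls and 134 and 97 in the mutants (0.81, SE 0.27, limma adjusted p = 0.681), and the gamma-7 gene *Cacng7*, with 31 and 31 against 56 and 57 (0.85, SE 0.29). With 1 library left out, *Cacna2d3* ran from 0.58 to 1.04 and *Cacng7* from 0.83 to 0.86, and the unadjusted p stayed under 0.05 only for *Cacna2d3* without Tet3 mutant replicate 2. Both are far better known from neurons than from muscle. None of 7 regulators of voltage-gated channels reached an unadjusted p of 0.05, and the 2 most abundant, the small GTPases *Rem1* and *Gem* that restrain L-type currents, had log2 fold changes of -0.05 and 0.03.

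On the store side, 1 of 16 further genes for release channels and their partners was higher at an unadjusted p under 0.05, 1 was lower (*Itpr3*, above), and the median was 0.07. The higher one was *Mrvi1*, which encodes IRAG, the partner of the type 1 inositol trisphosphate receptor through which cGMP kinase dampens calcium release. It had 241 and 243 normalized counts in the controls and 422 and 391 in the mutants, with a log2 fold change of 0.74 (SE 0.13, unadjusted p = 0.0024, limma adjusted p = 0.681). *Mrvi1* kept a value of 0.69 to 0.80 with each library left out and was above the controls per 1000 summed smooth muscle markers too, at 50.9 and 49.2 against 44.8 and 34.5, but overlapped per 1000 ciliated cell or cardiomyocyte markers. None of 11 genes for refilling and buffering of the store reached an unadjusted p of 0.05, with a median of 0.04. Among them the calcium pump gene *Atp2a2*, which encodes SERCA2, stood at 1786 and 2242 in the controls and 1990 and 1995 in the mutants, and the chaperone gene *Canx* at 1942 and 2021 and at 2080 and 1988.

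Of 6 genes for calcium extrusion across the plasma membrane, 1 was higher at an unadjusted p under 0.05, with a median of 0.30. The median was 0.14 and 0.10 without control replicates 1 and 2, and 0.26 and 0.21 without Tet3 mutant replicates 1 and 2. The gene called was the pump gene *Atp2b4*, with 1870 and 1646 normalized counts in the controls and 2276 and 2092 in the mutants (log2 fold change 0.31, SE 0.12, unadjusted p = 0.0423 by limma), which stayed under 0.05 only without control replicate 1 among the 4 fits with 1 library left out, while the more abundant *Atp2b1* had -0.04. None of 14 genes of the Gq and phospholipase C arm, which makes inositol trisphosphate, reached an unadjusted p of 0.05 (median -0.01). *Plcg1* and *Itpkb*, the 2 of them with the highest values, had log2 fold changes of -0.33 and -0.01. Of 16 calcium-calmodulin effectors, 1 was higher at that level (median -0.01), the transcription factor gene *Nfatc4*, with 361 and 383 against 591 and 451 (0.47, SE 0.17, unadjusted p = 0.0384 by limma). With 1 library left out *Nfatc4* ran from 0.28 to 0.67 and stayed under 0.05 only without Tet3 mutant replicate 2. The kinase gene *Mylk*, through which calcium starts contraction, had -0.11. No gene of these lists passed the adjusted threshold. A list of 135 further tested genes of the KEGG calcium signaling pathway was added after the data were seen. At an unadjusted p under 0.05, 7 of the 135 were higher and 1 was lower, against 6.68% of all genes tested in either direction. Their median was 0.09, beside -0.01 for all genes tested.

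**Figure D5:**
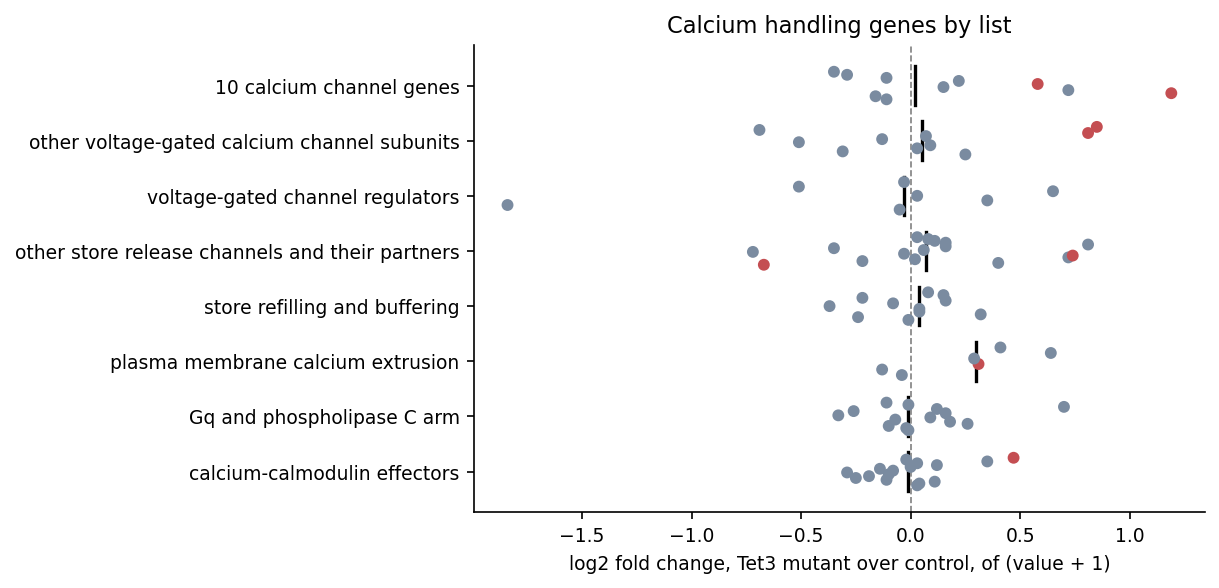
Log2 fold change (Tet3 mutant over control, of value + 1) of the channel genes and of the tested genes of 7 calcium handling lists, 1 point per gene, red where the unadjusted limma p was under 0.05. Black ticks are medians, which lay between -0.03 and 0.07 except for plasma membrane calcium extrusion (0.30, but 0.10 to 0.26 with 1 library left out). With 1 library left out, medians also moved for the channel genes (-0.19 to 0.36), other voltage-gated subunits (-0.26 to 0.33) and channel regulators (-0.01 to 0.22).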

How the data were processed

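RNA from tdTomato-positive lung cells was depleted of ribosomal RNA and made into stranded libraries from 50 ng of total RNA, sequenced in single-end mode. The authors trimmed reads with Trimmomatic 0.36, aligned them with STAR 2.6.0c to GRCm38 and counted reads over exons with featureCounts (Subread 1.6.0), leaving out reads of several genes or places. The use of strand in counting is not given in the sources used here, so overlapping genes on opposite strands are uncertain. The deposited values are a score, namely counts per gene that the authors scaled between samples and rounded to whole numbers. Raw counts could not be rebuilt from them, so no count test was run.

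Samples were grouped by the genotype label, and replicate numbers were taken from the sample titles. Deposited totals were 6805272 to 7164573 per library. Each library's scaling factor was estimated from which low values occur, and totals divided by it gave the estimated reads. log2(value + 1) was fitted for all 16659 genes with a mean of at least 10 with limma 3.58.1 in R 4.3.3 (mean-variance trend, Benjamini-Hochberg adjustment). The fit was tested on simulated data with known fold changes, in which replicates varied little beyond counting error. That test therefore does not give the power of the fit in these libraries. Fold changes on this scale understate those of low genes. With 2 against 2 samples an exact permutation test cannot go below 0.333. Gaps between replicates were also divided by the SD that counting alone would give, which covers counting error only. Exon lengths came from GENCODE M21 on GRCm38, where 99.0% of tested genes had the same coordinates. *Cacna1c* did not, and positions are those of the deposited table. Promoter windows came from a RefSeq table, which held 6 of the 10 genes.

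Named genes were the 10 channel genes, *Tet3*, *Xist*, *Ddx3y*, *Myh11* and *Acta2*, and per calcium list up to 4 genes of smallest p with an unadjusted p under 0.05 and groups that did not overlap, filled to 2 by mean value. The members and lists were chosen with earlier results of these data known. Other settings tried were a pseudocount of 0.5 or 8, a minimum mean of 1 or 50, TMM factors, equal library totals, no trend, a replicate block and each library left out.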

Additional observations from a re-analysis of the deposited data

How the results depend on the processing

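The number of genes past the adjusted threshold was 0 with 1112 at an unadjusted p under 0.05, and it was 1 by limma without the trend and 0 under the other alternatives. With 1 library left out, which assumes that the lone sample of a group varies like the other group, the unadjusted count ran from 273 to 3366 and that of the channel genes from 0 to 4. The median of the 10 channel genes then ran from -0.19 to 0.36. Without control replicate 1 the groups also differed in sex, by *Xist* and *Ddx3y*. The log2 fold changes that crossed 0 were those of *Cacna1c* (-0.31 to 0.08), *Cacna1d* (-0.54 to 0.22), *Cacna1h* (-0.03 to 1.47), *Cacnb2* (-0.28 to 0.58), *Cacna2d1* (-0.26 to 0.70), *Ryr3* (-1.54 to 0.85), *Itpkb* (-0.14 to 0.12), *Mylk* (-0.26 to 0.03), *Atp2b1* (-0.12 to 0.05), *Atp2a2* (-0.17 to 0.16), *Gem* (-0.15 to 0.22) and *Rem1* (-0.31 to 0.21). Changes of the share within a class, mutant minus control, ran from -1.70 to 2.72 points for *Cacna1c* and from -34.1 to 19.9 for *Ryr3*. These changes kept their sign for *Cacna1g* (12.2 to 15.0), *Cacnb3* (7.24 to 13.2) and *Itpr1* (3.56 to 9.0). Other scaling turned the sign of a few genes near 0. With TMM factors *Itpkb* and *Atp2a2* were at 0.01, and with equal totals, which moved the median of all genes from -0.01 to 0.04, *Itpkb* and *Atp2a2* were at 0.04, *Atp2b1* at 0.01 and *Rem1* at 0.00. The cause was not tested. *Cacna1h* was not tested at a mean of at least 50. Same-numbered libraries deviated together only weakly (Pearson 0.134 over 16659 genes, 2 pairs), so the numbers were not taken to mark pairs. When they were used as a replicate block, 2 channel genes, *Cacna1g* (unadjusted p = 0.0119 by limma) and *Cacnb3* (0.0273), stayed under 0.05, and 0 genes passed the adjusted threshold. The number of reads over genes, estimated at 6.32 M to 7.56 M per library, limits *Cacna1h* most, with 16 to 64 normalized counts.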
